A study of Mus musculus with 6 samples.

Results

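The 35 enzymes described here carry glucose through glycolysis to pyruvate and lactate and through pyruvate dehydrogenase into the citric acid cycle. They were taken by symbol from a given list, and all 35 were found among the 32531 gene symbols of the files. The list was chosen with earlier results of these data known. There are 15 glycolytic enzymes (with both lactate dehydrogenase subunits), 17 mitochondrial enzymes (with pyruvate carboxylase) and 3 cytosolic isoforms of cycle enzymes. All 35 passed the filter on low counts. The libraries come from cerebral cortex of adult, untreated mice of a single transgenic line, Htr4-EGFP/Rpl10a (ES1299), which makes an EGFP-tagged ribosomal protein L10a wherever the Htr4 promoter of the transgene is active. RNA bound to tagged ribosomes, captured with antibodies to EGFP (IP, n = 3), was compared with the input RNA of the cortex homogenate (input, n = 3). Both groups carry the transgene, and there is no untagged control. The series concerns pyramidal neurons, but the tag follows Htr4 promoter activity, and the labels do not say whether replicates came from separate animals. The p-values therefore measure the spread between these libraries, which may be technical.

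Glycolysis splits glucose into pyruvate in the cytosol. Lactate dehydrogenase interconverts pyruvate and lactate, and the pyruvate dehydrogenase complex turns pyruvate into acetyl-CoA inside mitochondria. There the cycle oxidises acetyl groups and feeds the respiratory chain. Many steps have several isoforms: in brain, Eno2 and Sucla2 are known as forms of neurons, and Eno1, Aldoc and Suclg2 are found more in glia and other cells. Neurons are known to rely on mitochondrial oxidation, whereas astrocytes are known to release lactate.

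Input libraries held 37696125 to 52360452 gene reads and IP libraries 53147173 to 67559533. Htr4 itself was at 8.17, 7.65 and 7.82 CPM (gene reads scaled by TMM to a common library total) in input and at 18.6, 22.6 and 18.4 in IP (log2 fold change of IP over input, called log2 change here, 1.34, edgeR adjusted p = 5.7e-05). The change of Rpl10a, which is known to have many pseudogenes, was -1.16 (edgeR adjusted p = 0.066). The sequence it shares with them was not measured, so its count is uncertain. All 10 astrocyte markers (most abundant, Slc1a2) were lower in IP (9 without input replicate 2), with a summed level of 4766 to 5372 CPM in input and 1004 to 1199 in IP. All 8 oligodendrocyte markers were lower, at 1377 to 1516 and 161 to 183 CPM, as were all 6 microglial markers (P2ry12), at 40.9 to 46.1 and 1.63 to 3.54 CPM. Of 6 endothelial markers (Slco1a4), 5 were tested and 4 were lower, and Tek had no read in any IP library. The replicate block, or leaving out input replicate 2, left 2 of them called, and leaving out input replicate 3 or IP replicate 3 left 3. Of 8 neuronal markers (Snap25), 6 were higher and 1, Map2, was lower, with sums of 20114 to 23454 and 27975 to 29891 CPM. Of 5 excitatory markers, Neurod6 was higher and Camk2a, the most abundant, did not pass. With the replicate block Slc17a7 was also higher (adjusted p = 0.0052), and without IP replicate 3, 2 of the 5 were lower. Slc32a1, Sst and Vip of 6 inhibitory markers were higher (2 to 5 over the alternatives) and Gad2, the most abundant, did not pass. The genes named in the last 3 lists, other than the most abundant, were named after their values were seen. The part of these shifts in the enzyme values below was not tested. In bulk RNA, fewer cells of a type and less RNA per cell cannot be told apart.

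Most of the enzymes were higher in the RNA of tagged ribosomes than in the input. Of the 35, 27 were higher in IP, 3 were lower (Eno1, Suclg2 and Idh1) and 5 did not pass (Pfkl, Pfkm, Idh2, Pcx and Aco1; edgeR quasi-likelihood test, two-sided, Benjamini-Hochberg adjusted p under 0.05 over 16506 genes). Among all tested genes, 21.3% were higher and 23.4% lower. The rises were small: they ran from 1.18-fold (Gpi1) to 2.12-fold (Dlat), and only Dlat rose at least 2-fold. The median log2 change was 0.48 over the 35 enzymes, against -0.02 over all tested genes and 0.05 over the 14160 protein-coding genes among them. All 3 IP libraries lay above all inputs for 28 enzymes and below them for 4, where the same held for 26.5% and 29.5% of tested genes. For 32 enzymes the change had 1 sign in all 3 sequencing lanes, each of which held 1 input and 1 IP library. Of the calls, 18 higher and all 3 lower were kept under every one of 17 other ways of processing.

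**Figure D1:**
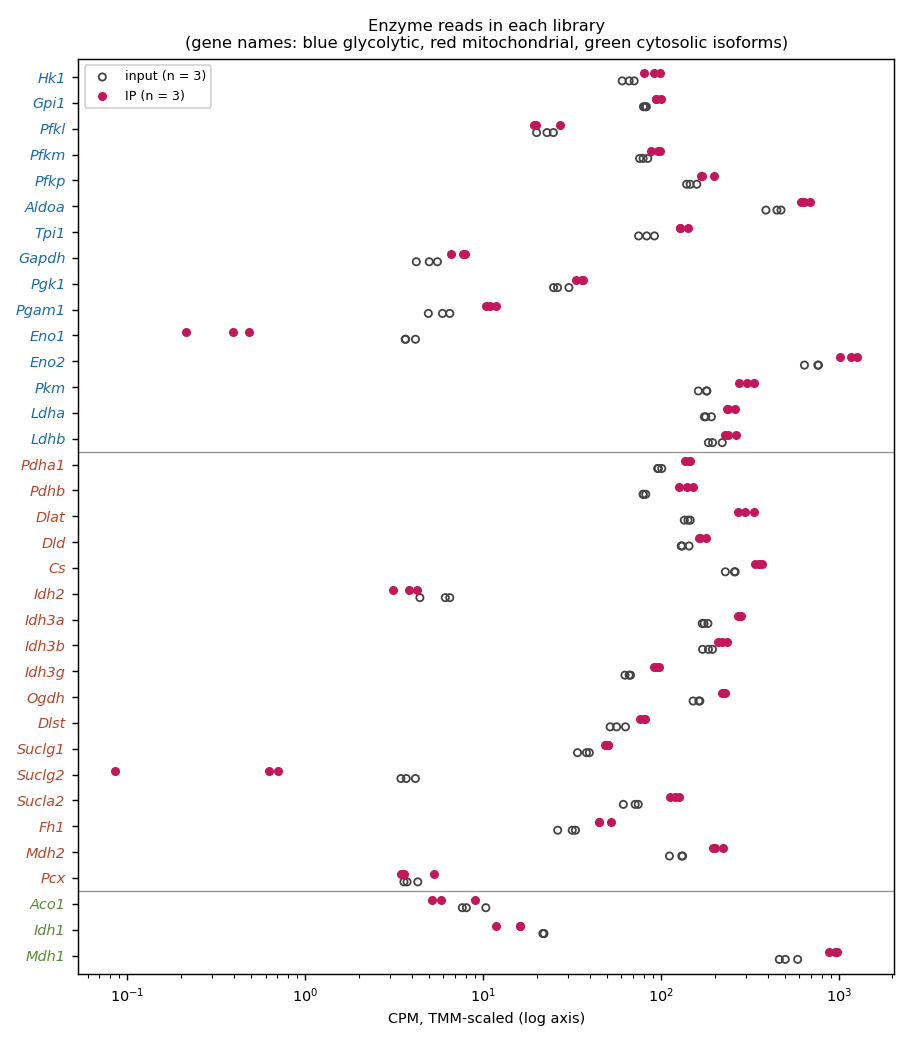
Reads of each enzyme in each library, as TMM-scaled CPM on a log axis (open, 3 input libraries; filled, 3 IP libraries). For 28 enzymes all filled points lie to the right of all open ones, and for Eno1, Suclg2, Idh1 and Idh2 they lie to the left.

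Reads that align to several places are listed apart from the genes in the files, and their share was 22.4% ± 1.21 (SD, n = 3) of an input library and 34.4% ± 1.43 of an IP library. A read in sequence that a gene shares with a pseudogene is thus not counted for the gene. Such sharing was measured as the share of 50-base words of the principal transcript (GENCODE M21) that also occur in an annotated gene elsewhere in the genome. The read length is not given in the sources used here. The share was 82.5% for Gapdh, 72.2% for Eno1, 68.0% for Pgk1 and 41.5% for Pgam1, and it was 0 for 19 enzymes. Gapdh, on chromosome 6 at 125161715 to 125166467 (minus strand, GRCm38), shares words with 222 other genes. The following 50 bases of its coding sequence, positions 415 to 464 of 1002, are printed because they occur in 84 other annotated genes.
Gapdh: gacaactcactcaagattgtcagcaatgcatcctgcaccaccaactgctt
A read that lies inside this stretch cannot be placed at a single locus. The 4 enzymes with over 40% shared words had input levels of 1.89 to 14.9 CPM per kilobase of transcript (median 3.36), against a median of 34.7 for the 24 enzymes with up to 10%. The 7 in between (Gpi1, Aldoa, Pkm, Ldha, Ldhb, Pdhb and Suclg2, at 13.9% to 30.5%) had a median of 71.7. Levels thus did not fall steadily with sharing. The fold changes of the 4, 7 and 24 enzymes had medians of 0.48, 0.42 and 0.48 on the log2 scale. The counts of Gapdh, Eno1, Pgk1 and Pgam1 are uncertain because of their shared sequence, and their levels are not ranked among those of the other enzymes. The levels of the 7 are ranked, though reads in their shared sequence are left out too.

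**Figure D2:**
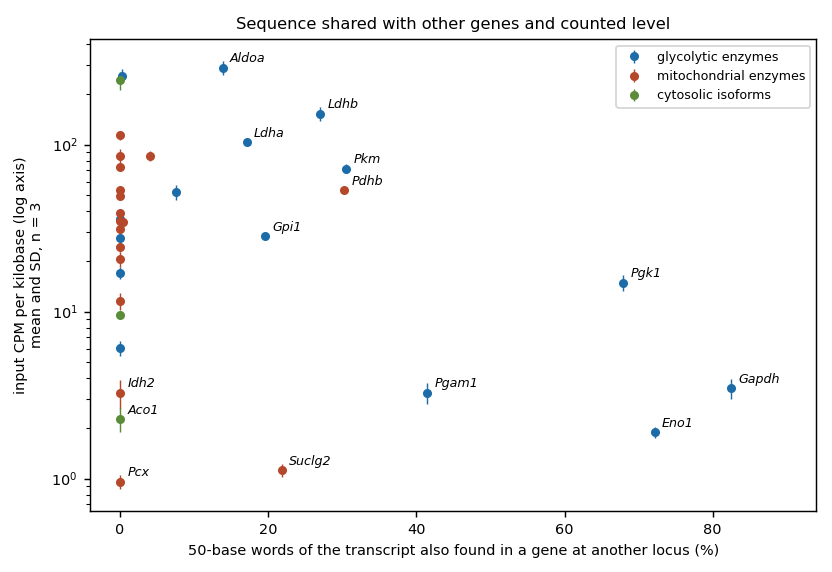
Input level of each enzyme (CPM per kilobase, log axis, mean and SD over 3 libraries) against the share of its transcript's 50-base words found in a gene at another locus. Gapdh, Eno1, Pgk1 and Pgam1 lie at 41.5% to 82.5% with levels of at most 14.9 CPM per kilobase.

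Because most members moved the same way, the RefSeq promoter windows (250 bases before to 50 after a start, GRCm38.p6) of 34 of the 35 enzymes were searched on both strands for 3 short motifs. ACGTG, the core bound by hypoxia-inducible factor, occurred in 10 of 25 windows of glycolytic enzymes (40%) and in 9 of 22 windows of mitochondrial enzymes (40.9%), against 19.6% of all 32851 windows. By gene, it occurred for 8 of 15 glycolytic and 4 of 16 mitochondrial enzymes, against 5886 of 27025 genes. GCGTG, which differs from it in the first base, occurred in 52% and 50% of windows, against 32.4% of all. The GC box GGGCGG occurred in 48% and 63.6%, against 35.7%. Windows of a gene can overlap, as some of Ogdh do, and base composition was not matched. Most of the mitochondrial windows with ACGTG belong to Ogdh alone, so the share of windows overstates the share of genes. Below are the 250 bases before the start for a gene with 3 places of ACGTG (Ldha, chr7:46845554-46845803, plus strand, the first of its 2 windows), one with 2 (Pgk1, chrX:106186850-106187099, plus strand), one with 1 (Mdh1, chr11:21571935-21572184, minus strand) and one with none (Eno2, chr6:124769674-124769923, minus strand). Capitals mark ACGTG or its reverse complement CACGT, joined where they overlap.
Ldha: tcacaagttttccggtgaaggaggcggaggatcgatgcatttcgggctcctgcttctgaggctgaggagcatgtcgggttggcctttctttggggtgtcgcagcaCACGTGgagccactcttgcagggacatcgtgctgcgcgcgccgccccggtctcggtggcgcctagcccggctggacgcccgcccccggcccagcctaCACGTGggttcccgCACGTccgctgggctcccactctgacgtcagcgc
Pgk1: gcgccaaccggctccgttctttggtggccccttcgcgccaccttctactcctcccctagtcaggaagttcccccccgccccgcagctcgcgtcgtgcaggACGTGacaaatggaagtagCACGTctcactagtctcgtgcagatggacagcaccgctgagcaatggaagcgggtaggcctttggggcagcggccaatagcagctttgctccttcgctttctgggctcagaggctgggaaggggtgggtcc
Mdh1: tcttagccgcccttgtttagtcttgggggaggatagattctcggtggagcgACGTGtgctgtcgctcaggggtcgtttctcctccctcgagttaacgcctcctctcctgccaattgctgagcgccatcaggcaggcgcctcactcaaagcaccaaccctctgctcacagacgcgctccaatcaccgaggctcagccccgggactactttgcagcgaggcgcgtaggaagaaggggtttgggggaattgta
Eno2: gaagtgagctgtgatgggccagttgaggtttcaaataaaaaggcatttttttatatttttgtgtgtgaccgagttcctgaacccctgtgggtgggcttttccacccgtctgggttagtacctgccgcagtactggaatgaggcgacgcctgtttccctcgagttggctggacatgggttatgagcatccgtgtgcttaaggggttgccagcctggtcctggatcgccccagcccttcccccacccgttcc
Eno2, whose whole window holds no ACGTG on either strand, and Mdh1, whose window does, both rose in IP, by 0.67 and 0.86 on the log2 scale. A match is a description of the letters only.

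Per kilobase of principal transcript, the most abundant enzymes in input were Aldoa (289 ± 28.5 CPM per kilobase, SD, n = 3), Eno2 (259 ± 25.7) and cytosolic malate dehydrogenase Mdh1 (243 ± 30.0), whose ranges overlapped from each to the next. Ldhb (154 ± 14.3) stood apart below them, followed by Idh3b (114 ± 7.25), Ldha (103 ± 5.03), Mdh2 (85.9 ± 7.95) and Cs (85.5 ± 5.93). Idh3b overlapped Ldha, and Mdh2 overlapped Cs. Levels fell to 1.12 ± 0.108 for Suclg2 and 0.956 ± 0.0916 for Pcx, which overlapped. In IP the same 3 enzymes led, with Mdh1 at 440 ± 23.8, Aldoa at 428 ± 25.6 and Eno2 at 412 ± 45.5. The summed level of the 15 glycolytic enzymes was 2069 to 2349 CPM in input and 3034 to 3495 in IP, and that of the 17 mitochondrial enzymes was 1603 to 1648 and 2416 to 2450.

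Along glycolysis, 12 of 15 enzymes were higher in IP, 1 was lower and 2 did not pass, with a median log2 change of 0.42. Within lanes 1, 2 and 3 the median was 0.28, 0.45 and 0.51, against -0.01, -0.03 and -0.03 over all tested genes. Calls under every alternative were kept by Hk1, Aldoa, Tpi1, Pgam1, Eno2, Pkm and Ldha of those that rose, and by Eno1, which fell. The remaining 5 rises (Gpi1, Pfkp, Gapdh, Pgk1 and Ldhb) were the ones close to the threshold. The number higher was 7 without input replicate 2 or without IP replicate 3, and 7 when only genes with 1 CPM or more in 3 libraries were kept.

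Hexokinase 1 (Hk1), which phosphorylates glucose, was at 66.3, 70.7 and 60.6 CPM in input and 80.4, 99.4 and 91.9 in IP. The groups did not overlap, and the log2 change was 0.46 (SE 0.11, adjusted p = 0.0049). Glucose-6-phosphate isomerase (Gpi1) rose least of the called enzymes, from 81.3 ± 1.54 to 95.9 ± 3.33 CPM (log2 change 0.24, adjusted p = 0.044). It missed the threshold without any 1 of the 6 libraries (adjusted p from 0.057 to 0.15). The 3 phosphofructokinase genes encode subunits of the enzyme that commits sugar to glycolysis. The platelet-type subunit Pfkp was at 139, 146 and 159 CPM in input and 169, 167 and 199 in IP (log2 change 0.27, adjusted p = 0.043). Without input replicate 1, input replicate 2 or IP replicate 3 its adjusted p was 0.11, 0.13 and 0.14. The muscle-type Pfkm had 79.9 ± 4.24 and 94.5 ± 5.71 CPM (log2 change 0.24, adjusted p = 0.056). Its groups did not overlap, and its adjusted p was 0.043 in the fit blocked by replicate and 0.035 without IP replicate 1. The liver-type Pfkl had 22.6 ± 2.44 and 22.2 ± 4.38 CPM, and its groups overlapped (adjusted p = 0.91). Its log2 change of -0.03 turned positive with total counts (0.06) and without input replicate 2 (0.04), IP replicate 1 (0.07) or IP replicate 3 (0.05).

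Aldolase A (Aldoa), which cleaves fructose bisphosphate, lies on chromosome 7 at 126795234 to 126800751 (minus strand). It was at 473, 448 and 389 CPM in input and 637, 614 and 689 in IP (log2 change 0.57, SE 0.09, adjusted p = 0.00048). Triose phosphate isomerase (Tpi1) was at 91.9, 83.1 and 74.9 CPM in input and 128, 128 and 142 in IP (log2 change 0.67, adjusted p = 0.00029). For both, the lowest IP library lay above the highest input. Glyceraldehyde-3-phosphate dehydrogenase (Gapdh) was listed at only 4.22, 4.99 and 5.55 CPM in input and 7.69, 6.58 and 7.92 in IP. Its log2 change of 0.59 was called at an adjusted p of 0.049, and the call was lost in 14 of 17 alternatives, the replicate block among them (adjusted p = 0.061). Without 1 library, only leaving out IP replicate 2 kept it, and the adjusted p ran from 0.057 to 0.13 without the others. Phosphoglycerate kinase (Pgk1) had 27.2 ± 2.85 and 35.1 ± 1.72 CPM (log2 change 0.37, adjusted p = 0.031). Without input replicate 2 or 3 or IP replicate 2 or 3 its adjusted p ran from 0.059 to 0.12. Phosphoglycerate mutase (Pgam1) rose most of the glycolytic enzymes, from 6.51, 5.92 and 4.93 CPM to 11.8, 10.5 and 10.9 (log2 change 0.94, adjusted p = 0.0021). It stood above all inputs in every IP library.

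The 2 enolases, which make phosphoenolpyruvate, moved in opposite directions. Eno2 (chromosome 6, 124760053 to 124769673, minus strand) was at 761, 767 and 640 CPM in input and 1016, 1172 and 1268 in IP (log2 change 0.67, SE 0.10, adjusted p = 0.00030). Eno1 (chromosome 4, 150236721 to 150248879, plus strand) was at 3.68, 3.66 and 4.18 CPM in input and 0.395, 0.215 and 0.483 in IP, which were 22, 15 and 33 reads. Its log2 change was -3.39 (SE 0.46, adjusted p = 0.00012), and it ran from -3.66 to -3.11 over the alternatives. Pyruvate kinase (Pkm), the last step, was at 181, 180 and 162 CPM in input and 275, 303 and 332 in IP (log2 change 0.80, SE 0.09, adjusted p = 4.9e-05). The summed Pkm count does not separate its splice forms. Lactate dehydrogenase A (Ldha) was at 192, 179 and 175 CPM in input and 235, 260 and 238 in IP (log2 change 0.42, adjusted p = 0.0017). Lactate dehydrogenase B (Ldhb) was at 221, 195 and 185 CPM in input and 239, 228 and 263 in IP (log2 change 0.28, adjusted p = 0.031). The lowest IP value of Ldhb was close to its highest input, and without input replicate 2, input replicate 3 or IP replicate 3 the adjusted p was 0.12, 0.095 and 0.089. With the 4 corrections for transcript length and GC content its fold change turned to between -0.10 and -0.02.

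**Figure D3:**
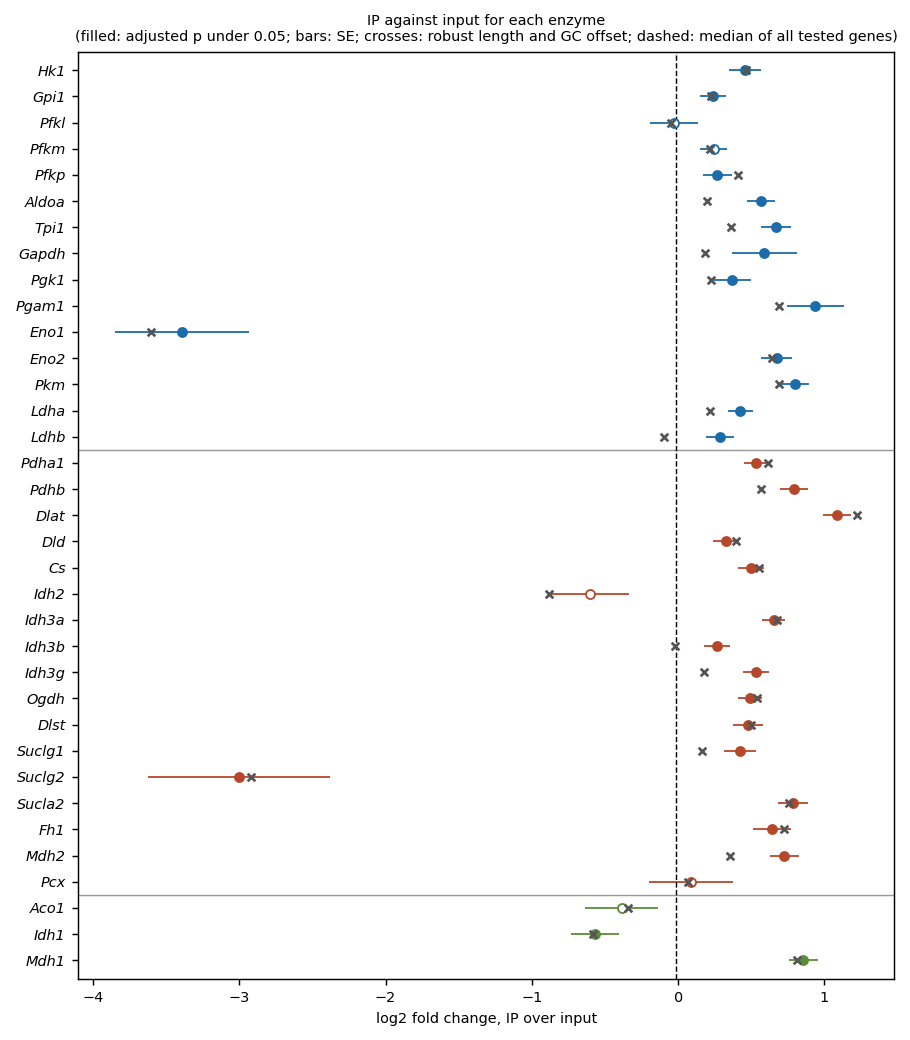
Log2 fold change of IP over input for each enzyme (points, with SE as bars; filled where the adjusted p was under 0.05; blue glycolytic, red mitochondrial, green cytosolic isoforms), with the value under the robust length and GC offset as a cross and the median of all tested genes, -0.02, as a dashed line. Eno1 and Suclg2 lie at or below -3.00, and the crosses of Ldhb and Idh3b fall below 0.

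In mitochondria, 14 of 17 enzymes were higher in IP, 1 was lower and 2 did not pass, with a median log2 change of 0.50. The lane medians were 0.49, 0.43 and 0.52. The calls of Pdha1, Pdhb, Dlat, Cs, Idh3a, Ogdh, Dlst, Sucla2, Fh1 and Mdh2, and the fall of Suclg2, were kept in all 17 alternatives. No test compared the glycolytic with the mitochondrial group, and their lane medians overlap.

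The pyruvate dehydrogenase complex is built of Pdha1 and Pdhb (the decarboxylase), Dlat (the acetyltransferase core) and Dld (a dehydrogenase shared with the oxoglutarate complex). Dlat (chromosome 9, 50634633 to 50659780, minus strand) was at 142, 135 and 146 CPM in input and 332, 295 and 270 in IP. Its rise was the largest of the 35 (log2 change 1.08, SE 0.10, adjusted p = 5.5e-06), and it was seen in every lane (1.23, 1.13 and 0.88). Pdhb was at 79.5, 82.1 and 79.5 CPM in input and 140, 126 and 151 in IP (log2 change 0.79, adjusted p = 5.2e-05). Pdha1 was at 96.7, 95.8 and 101 CPM in input and 136, 144 and 145 in IP (log2 change 0.53, adjusted p = 0.00042). Dld rose least, from 135 ± 7.60 to 170 ± 8.83 CPM (log2 change 0.33, adjusted p = 0.0097; without input replicate 2, 0.053). The subunits of the complex thus rose unequally. Relative to Pdha1 within a library, per kilobase, Dlat went from 1.02 ± 0.0194 to 1.49 ± 0.212 and Pdhb from 1.55 ± 0.0666 to 1.85 ± 0.172, and Dld went from 1.54 ± 0.0453 to 1.35 ± 0.121. None of these 3 ratios overlapped between groups. They were not tested across the 3 against 3 libraries, where no p can go below 0.1. Groups without overlap were common among single tested genes (26.5% with IP above and 29.5% with IP below). Pyruvate carboxylase (Pcx), which makes oxaloacetate and is known as a glial enzyme in brain, was at 4.30, 3.60 and 3.75 CPM in input and 3.59, 3.44 and 5.32 in IP. The groups overlapped (log2 change 0.09, adjusted p = 0.84), and the sign turned without IP replicate 3 (-0.14).

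Citrate synthase (Cs), the entry to the cycle, was at 230, 261 and 259 CPM in input and 354, 367 and 338 in IP (log2 change 0.50, adjusted p = 0.00065). The NAD-dependent isocitrate dehydrogenase has a catalytic subunit, Idh3a, and the subunits Idh3b and Idh3g. Idh3a was at 184, 170 and 175 CPM in input and 271, 283 and 277 in IP (log2 change 0.65, adjusted p = 6.1e-05). Idh3g had 65.5 ± 2.46 and 94.8 ± 2.85 CPM (log2 change 0.53, adjusted p = 0.00061). Idh3b had 184 ± 11.7 and 221 ± 12.4 CPM (log2 change 0.26, adjusted p = 0.028). All 3 groups of libraries stood apart from their inputs, but the rise of Idh3b was the least secure. Its adjusted p ran from 0.053 to 0.094 without any input library or without IP replicate 2, and under the robust length and GC offset the change was -0.02. Idh3g kept its sign there but not its call (0.17, adjusted p = 0.12). The ratio of Idh3b to Idh3a went from 1.55 ± 0.129 to 1.18 ± 0.0545 per kilobase, and that of Idh3g to Idh3a from 0.672 ± 0.0374 to 0.618 ± 0.00586, both without overlap. These ratios were not tested either, and no share without overlap was computed for other gene pairs. The NADP-dependent mitochondrial form Idh2 went the other way, at 6.51, 6.14 and 4.42 CPM in input and 3.12, 3.83 and 4.28 in IP. No IP library reached an input, but the difference did not pass (log2 change -0.60, SE 0.27, adjusted p = 0.088), except with the length and GC offsets (-0.88 and adjusted p = 0.014 with the robust one).

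The oxoglutarate dehydrogenase complex rose in both of its own subunits. Ogdh was at 152, 165 and 163 CPM in input and 227, 219 and 228 in IP (log2 change 0.49, adjusted p = 0.00056), and Dlst had 57.1 ± 5.74 and 79.5 ± 2.66 CPM (log2 change 0.48, adjusted p = 0.0029). Their ratio was 0.532 ± 0.0334 in input and 0.529 ± 0.0249 in IP, with overlapping groups. Succinyl-CoA ligase pairs the common subunit Suclg1 with Sucla2, the ADP-forming subunit, or with Suclg2, the GDP-forming one. Sucla2 (chromosome 14, 73525319 to 73596142, plus strand) was at 71.6, 61.5 and 74.5 CPM in input and 126, 112 and 120 in IP (log2 change 0.79, adjusted p = 9.7e-05). Suclg1 had 37.2 ± 2.91 and 49.9 ± 1.17 CPM (log2 change 0.42, adjusted p = 0.0078). Under the robust length and GC offset the log2 change of Suclg1 was 0.16, with an adjusted p of 0.21. Suclg2 was at 3.46, 4.17 and 3.70 CPM in input and 0.628, 0.0860 and 0.703 in IP, which were 35, 6 and 48 reads. Its log2 change was -3.00 (SE 0.62, adjusted p = 0.0022), and every IP library lay far below every input, IP replicate 2 farthest. The ADP- and GDP-forming subunits of the same step thus moved in opposite directions.

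Fumarase (Fh1), encoded by 1 gene for mitochondria and cytosol, was at 31.7, 33.1 and 26.3 CPM in input and 44.8, 44.8 and 52.4 in IP (log2 change 0.64, adjusted p = 0.0017). Mitochondrial malate dehydrogenase (Mdh2) was at 131, 132 and 112 CPM in input and 195, 201 and 224 in IP (log2 change 0.73, adjusted p = 0.00013). Both groups of IP libraries lay above their inputs. The 3 cytosolic isoforms did not move together. Mdh1 (chromosome 11, 21556787 to 21572367, minus strand), which works in the malate-aspartate shuttle, was at 586, 500 and 462 CPM in input and 950, 878 and 975 in IP (log2 change 0.86, SE 0.10, adjusted p = 3.6e-05). Idh1 (chromosome 1, 65158616 to 65186500, minus strand), a source of cytosolic NADPH, was at 21.7, 22.0 and 21.9 CPM in input and 16.2, 16.2 and 11.8 in IP (log2 change -0.57, adjusted p = 0.013). Aco1, an aconitase that also serves as an iron regulatory protein, was at 7.65, 8.07 and 10.4 CPM in input and 9.02, 5.82 and 5.16 in IP. It did not pass (log2 change -0.39, adjusted p = 0.23), and its groups overlapped through IP replicate 1, without which the values were -0.66 and 0.043.

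Ratios of 2 isoforms within a library need no library size. Of 12 pairs, 4 had a higher ratio in all IP libraries than in all inputs, 0 had a lower one and 8 overlapped. Among single tested genes, all IP libraries lay above all inputs for 26.5% and below them for 29.5%. No such share was computed for ratios of other gene pairs. A two-sided exact permutation test over 3 against 3 libraries cannot give a p below 0.1, which each of the 4 reached (0.3 after adjustment over the 12 pairs), so no pair could pass a threshold of 0.05. The log2 ratio of Eno2 to Eno1 was 7.69, 7.71 and 7.26 in input and 11.33, 12.41 and 11.36 in IP. That of Sucla2 to Suclg2 was 4.37, 3.88 and 4.33 in input and 7.65, 10.34 and 7.42 in IP, so that Sucla2 took 94.8% ± 0.976 of the reads of the pair in input and 99.6% ± 0.270 in IP. Aldolase C (Aldoc), which is also among the astrocyte markers, fell from 216 ± 24.6 to 88.3 ± 10.9 CPM (log2 change -1.29, adjusted p = 6.7e-06). Aldoa accordingly took 66.9% ± 0.434 of the aldolase reads of the pair in input and 88.0% ± 0.679 in IP, with log2 ratios of 1.01, 0.99 and 1.05 against 2.94, 2.92 and 2.77. The fourth pair was Slc2a3, known as the neuronal glucose transporter, and Slc2a1, known for endothelium and glia, with log2 ratios of 3.11, 3.20 and 2.79 in input and 3.78, 3.74 and 3.73 in IP. In all 4 pairs the second gene fell in IP. Of these second genes, Eno1 had 72.2% of shared words and Suclg2 had 21.8%, and Aldoc and Slc2a1 had none at another locus. Of the first genes, Aldoa had 13.9%.
The lactate dehydrogenase subunits showed no such shift: the log2 ratio of Ldhb to Ldha was 0.20, 0.13 and 0.08 in input and 0.03, -0.18 and 0.14 in IP (exact permutation p = 0.3). Hk1 exceeded Hk2 in every library, by log2 ratios of 4.59 to 5.53 in input and 5.27 to 7.57 in IP (exact permutation p = 0.2). The ratios of Pfkp and Pfkm to Pfkl (p = 0.3 and 0.2), Idh2 to Idh1 (p = 1), Mdh2 to Mdh1 (p = 0.3), Ogdhl to Ogdh (p = 0.3) and the lactate carriers Slc16a7 to Slc16a1 (p = 0.9) also overlapped, all by the same exact permutation test. Without IP replicate 2, 7 of the 12 pairs did not overlap, though fewer libraries separate more easily.

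**Figure D4:**
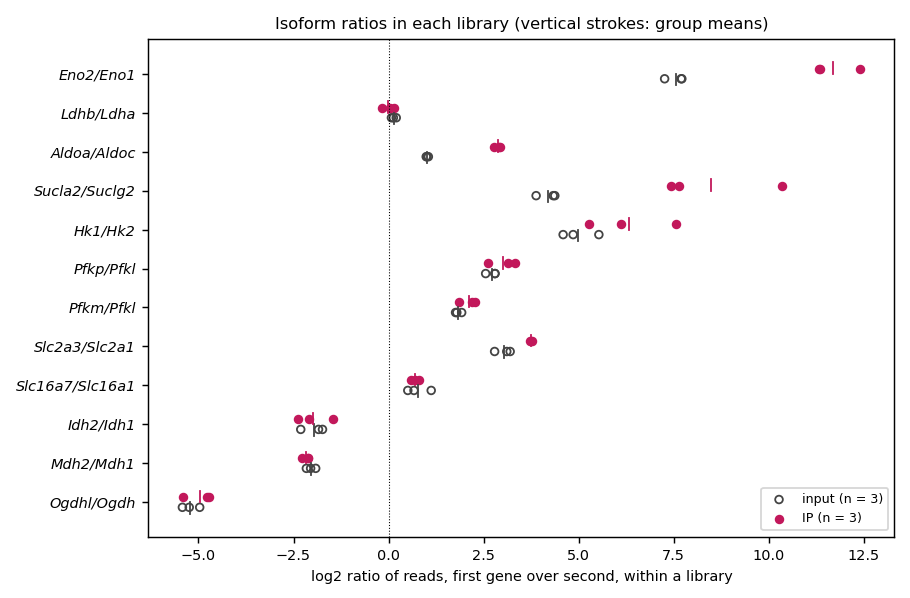
Log2 ratio of the reads of 2 isoforms within each library (open, 3 input libraries; filled, 3 IP libraries; vertical strokes, group means; dotted line, equal reads). The filled points lie to the right of all open ones for Eno2/Eno1, Aldoa/Aldoc, Sucla2/Suclg2 and Slc2a3/Slc2a1, and the other 8 pairs overlap.

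Of 18 further isoforms and subunits, 14 were tested, 3 were higher (21.4%) and 4 lower (28.6%), with a median log2 change of 0.18 (-0.29 to 0.28 over the alternatives). These shares lie near those of all tested genes, 21.3% and 23.4%. Among the higher were Ogdhl (0.74, adjusted p = 0.035) and Pdhx, the Dld-binding subunit of pyruvate dehydrogenase (0.27, adjusted p = 0.047). Pdhx was lost with the replicate block (adjusted p = 0.051), where Bpgm, named after its values were seen, was gained (adjusted p = 0.032). Pdhx was also lost without any 1 library (0.055 to 0.16), and Ogdhl without input replicate 1 or 3 or IP replicate 2 or 3 (0.084 to 0.11). Among the lower, beside Aldoc, were the sperm-type Gapdhs (-4.32, 2.41 ± 0.572 CPM in input) and Hkdc1 (-0.95, adjusted p = 0.039). Hkdc1 was lost without any 1 library other than IP replicate 2 (0.067 to 0.14).

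Of 18 regulators, 17 symbols were in the files and 16 were tested, with 4 higher, 4 lower (25% each, again near all tested genes) and a median log2 change of -0.03. The pyruvate dehydrogenase kinases, which switch the complex off, differed among themselves. Pdk2 rose from 93.6 ± 4.33 to 134 ± 4.83 CPM (0.52, adjusted p = 0.00060) and Pdk3 by 0.55 (adjusted p = 0.0023). Pdk4 fell from 6.70, 7.51 and 8.68 CPM to 0.951, 0.774 and 0.498 (-3.37, adjusted p = 1.3e-05). Both phosphatases, which switch it on, were lower: Pdp1 by -0.45, from 180 ± 6.53 to 132 ± 7.07 CPM (adjusted p = 0.0013), and Pdp2 by -0.60 (adjusted p = 0.016). The call of Pdp2 was lost in 7 of 17 alternatives: without input replicate 1 or 2 or IP replicate 1 (0.054 to 0.060) and under all 4 length and GC offsets (0.083 to 0.14). Under the robust offset the change of Pdp1 was -0.27 (adjusted p = 0.015). Pfkfb2, which sets the level of the phosphofructokinase activator fructose 2,6-bisphosphate, fell by 0.70 (adjusted p = 0.00020). Lipt2, of lipoic acid attachment, rose by 1.10 (adjusted p = 0.0086). The coactivator Ppargc1a, the most abundant of the list, rose by 0.34 (adjusted p = 0.014; 0.080 without input replicate 2; 0.61 on the log2 scale under the robust offset).

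Among 10 carriers of glucose, lactate and pyruvate, 9 were tested, 1 was higher (11.1%) and 3 were lower (33.3%), with a median of -0.09. Of all tested genes, 21.3% were higher and 23.4% lower. The mitochondrial pyruvate carrier subunit Mpc2 was at 33.0, 22.8 and 23.4 CPM in input and 57.9, 48.2 and 63.2 in IP (1.10, adjusted p = 0.00022; 0.69 under the robust offset). Its partner Mpc1 did not pass (0.46, adjusted p = 0.24, 3.06 ± 0.639 CPM in input). Slc2a1 fell by 0.83 (adjusted p = 0.0023), Slc16a7 by 0.51 (adjusted p = 0.011; 0.072 without input replicate 3) and Slc16a1 by 0.43 (adjusted p = 0.038). The call of Slc16a1 was lost in 11 of 17 alternatives: without any 1 library other than IP replicate 3 (0.057 to 0.12), under all 4 length and GC offsets (0.11 to 0.17), with total counts and with no filter. Under those offsets Slc16a7 turned to between 0.03 and 0.10. Slc2a3, the most abundant, did not pass (-0.09, adjusted p = 0.44).

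Of 16 shuttle and anaplerosis genes, all tested, 8 were higher (50%, against 21.3% of all tested genes) and 3 lower (18.8%, against 23.4%), with a median of 0.34. The oxoglutarate-malate carrier Slc25a11 was at 46.7, 43.1 and 36.5 CPM in input and 79.4, 76.3 and 86.3 in IP (0.94, adjusted p = 6.4e-05), and the glutamate carrier Slc25a22 rose by 0.78 (adjusted p = 9.9e-05). Among the lower were the malic enzyme Me3 (-0.60, adjusted p = 0.010; 0.054 under the robust offset) and glutamate dehydrogenase Glud1 (-0.36, adjusted p = 0.0046). Of 14 side branch genes, 12 were tested, with 3 higher (25%, near the 21.3% of all tested genes), 1 lower (8.33%, against 23.4%) and a median of -0.17. This balance depended on the processing: it was 1 higher and 3 lower under all 4 length and GC offsets, 3 and 4 with DESeq2 and with a minimum of 1 CPM, 3 and 3 with limma-voom and RLE factors, and 3 and 2 with the replicate block, where Pygb, named after its values were seen, was gained (adjusted p = 0.040). The pentose phosphate enzymes Pgls (1.03, adjusted p = 0.039), Taldo1 (0.69, adjusted p = 0.011) and Tkt (0.57, adjusted p = 0.0035) were higher. Pgls was lost without any 1 library other than IP replicate 3 (0.054 to 0.11) and under all 4 offsets (0.43 to 0.58). Taldo1 was lost under all 4 offsets (0.12 to 0.25), and Tkt kept its call in all 17 alternatives. The glycogen phosphorylase Pygm fell (-2.59, adjusted p = 0.00041), from 5.64 ± 1.55 to 0.931 ± 0.476 CPM. The most abundant, Ugp2, which makes UDP-glucose, did not pass (-0.24, adjusted p = 0.067).

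**Figure D5:**
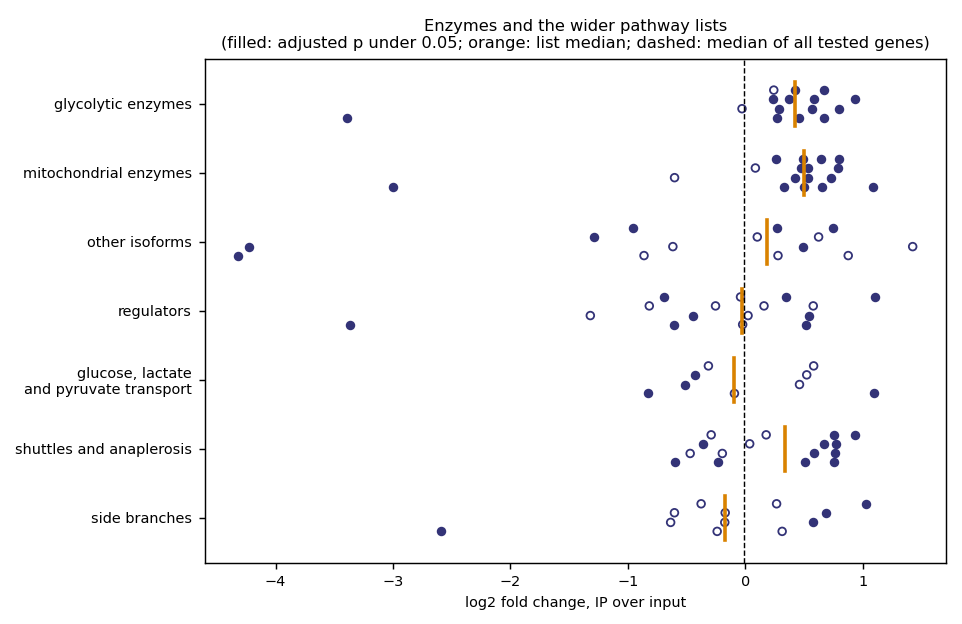
Log2 fold change of IP over input for each tested gene of the 2 enzyme groups and the 5 further pathway lists (filled, adjusted p under 0.05; orange stroke, list median; dashed line, median of all tested genes, -0.02). The medians of the 2 enzyme groups are 0.42 and 0.50, and those of the other lists run from -0.17 to 0.34.

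Fold changes moved with transcript length in these libraries. Over tested protein-coding genes, the median log2 change was 0.59 for transcripts up to 1000 bases, 0.14 between 2000 and 3000 bases and -0.27 above 6000 bases (Spearman's rho -0.25 across genes, which are not independent replicates). The enzymes' transcripts had a median of 2403 bases (1304 to 4145), against 3106.5 for tested protein-coding genes. With a robust offset for length and GC content, the glycolytic median was 0.22 with 10 higher and the mitochondrial median 0.50 with 11 higher and 2 lower, the second being Idh2. The median of all tested genes was then 0.06, with 3764 higher and 2765 lower of the 14980 genes with a known length. Without the offset, 3523 were higher and 3864 lower of 16506 genes, so these counts cover different sets of genes. Among the 14160 protein-coding genes, 3441 were higher and 2885 lower without the offset. Gapdh, Pgk1, Ldhb, Idh3b, Idh3g and Suclg1 lost their calls under that offset, and Pfkm gained one (adjusted p = 0.048). Of those that kept the call, Aldoa fell to 0.20 (adjusted p = 0.034), Ldha to 0.22 (adjusted p = 0.038), Tpi1 to 0.36 and Mdh2 to 0.36, while Pfkp was at 0.41.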

How the data were processed

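The values the authors deposited are whole-number counts for each gene symbol, without normalization, in 1 file per library. The submitters' processing notes name STAR 2.0.0e, HTSeq and the build mm10. For HTSeq, the version, strand setting and gene models were not given in the sources used here, so reads of a gene and of an overlapping or antisense gene cannot be told apart. Library sizes exclude the categories that are not genes: reads outside genes (17.2% ± 0.722 of listed reads in input, 8.78% ± 0.162 in IP), reads matching several genes (8.99% ± 0.856 and 1.82% ± 0.0772) and the multiply aligned reads given above. A count of 3 reads is 0.0444 to 0.0796 CPM, a floor for counting error only.

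The test was edgeR 4.0.16 (R 4.3.3), quasi-likelihood, with TMM scaling, filterByExpr, group as the only term and Benjamini-Hochberg adjustment over all tested genes (threshold 0.05). Its script was tested on simulated data, where it called 54% of 200 genes that had been changed 2-fold among 16156. There, 6.09% of its calls were false. In the real data 44.8% of tested genes were called, a far larger share than the simulation changed. The 54% thus does not measure the power of the test for these enzymes. A gene that did not pass may still differ. CPM are TMM-scaled, as mean ± SD over 3 libraries. Members were matched to GENCODE M21 and RefSeq by symbol, and 23927 of 32531 symbols had an annotation. The members and all lists were chosen with earlier results of these data known. All 35 enzymes may be named. Of each further pathway list, the rule names the 2 called genes that rose most, the 2 that fell most, the most abundant gene, isoform partners, Pdhx, Mpc1 and Mpc2, and of each marker list the most abundant gene. A few genes within this rule are not reported here. Hkdc1, Pdk1, Pdk2, Pdp1, Pdp2, Tkt, Tek, Bpgm, Pygb, Flt1, Pecam1 and Slc17a7 were named after their values were seen, to complete short counts.

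Libraries of a group differed by more than sampling noise (chi-square per degree of freedom 22.0 to 65.2), so none were copies. Per the labels, libraries of 1 number shared a lane, so numbers pair the libraries. Deviations from the group means correlated at 0.13, 0.086 and 0.047 for libraries of the same number and at -0.083 to 0.0066 otherwise. The index sequence was the same in all inputs and differed from that of all IPs, so the index cannot be told apart from the group. Alternatives were DESeq2 1.42.0, limma-voom (limma 3.58.1), RLE factors, total counts, no filter, a minimum of 1 CPM in 3 libraries, the replicate block, length and GC offsets (robust, and a mean-based one chosen after seeing the data, each without and with the block), and leaving out each library. An arm left with 2 libraries shares the pooled spread.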

Additional observations from a re-analysis of the deposited data

How the results depend on the processing

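Of 595 enzyme values under the 17 alternatives, 516 kept their direction and side of the threshold, 55 lost the call, 11 gained one and 13 turned sign. The number of glycolytic enzymes higher was 7 with at least 1 CPM in 3 libraries and 7 to 11 without 1 library. The glycolytic median was 0.22 with the robust length and GC offset, with or without the replicate block, and 0.27 with the mean-based one, with or without it. The number of mitochondrial enzymes lower was 2 under all 4 offsets. The mitochondrial median was 0.59 with total counts and 0.45 with at least 1 CPM in 3 libraries. The isoform pairs without overlap numbered 4 to 7 without 1 library. Pfkl turned to 0.064 with total counts and ran from -0.20 to 0.070 without 1 library. Ldhb turned to -0.10 (robust offset, also with the block), and to -0.025 (mean-based, both ways), and Idh3b to -0.021 and -0.022 (robust, without and with it). Pcx turned to -1.34e-05 and -0.017 (mean-based, without and with the block) and ran from -0.14 to 0.21 without 1 library. Slc2a3 turned to 0.00077 with total counts and 0.029 with both robust fits, and Slc16a7 to 0.095 and 0.097 (robust, without and with the block) and 0.030 and 0.031 (mean-based). For length and GC, the cause was not tested beyond the construction of the offset, which removes the trend of counts on both. Among the 35 enzymes the replicate block changed the calls of Gapdh (lost, adjusted p = 0.061) and Pfkm (gained, 0.043) in edgeR and no other. In the further pathway lists Pdhx was lost (0.051), and Bpgm (0.032) and Pygb (0.040) were gained. Among the markers Flt1 (0.072) and Pecam1 (0.083) were lost, and Slc17a7 (0.0052) was gained. It called 3607 genes higher and 3966 lower, and 12 glycolytic and 14 mitochondrial enzymes higher. Depth limits the size of the falls of Eno1 and Suclg2, which had at most 48 reads in an IP library.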
